A study of Mus musculus with 4 samples.

Results

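The cytosolic heat shock chaperones were followed as 9 genes chosen by symbol. They comprise the HSP70 genes *Hspa2*, *Hspa8* and *Hspa1l*, the HSP110 genes *Hspa4*, *Hspa4l* and *Hsph1*, the HSP90 genes *Hsp90aa1* and *Hsp90ab1*, and *Dnaja1*, which encodes a J-domain partner of HSP70. Of the 9 symbols, 8 matched a row among the 11598 genes of the table, and *Hspa1l* was not analysed here because it had no row in the table used. All 8 had a mean of at least 1 FPKM and entered the test; the test ran on 10475 genes in all.

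The data came from Ribo-seq, which sequences the stretches of mRNA that translating ribosomes shield from RNase (ribosome-protected fragments, RPFs). The cells were leptotene/zygotene (L/Z) spermatocytes, the earliest stages of meiotic prophase, isolated by FACS from dissociated testes of mice at 12 dpp. Each genotype was represented by 2 libraries, described by the submitters as independent biological replicates. RPF levels are given as FPKM, the RPF reads of a gene per kilobase of gene length for every 1000000 counted reads. No mRNA levels were set beside them, so changes in mRNA amount and in ribosomes per mRNA cannot be told apart here.

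*Eef1g*-cKO mice carried floxed *Eef1g* alleles, made on a C57BL/6J background, from which exons were removed in male germ cells by *Stra8*-GFPCre. *Eef1g* encodes eEF1G, the gamma subunit of the elongation factor that brings aminoacyl-tRNA to the ribosome. The Control libraries are called control in their titles and wild type in their genotype label, with no Cre or floxed allele named. *Stra8*-GFPCre is active in germ cells from spermatogonia onward, so recombination began before meiosis, and the somatic cells of the testis kept the gene. How many animals were pooled for a library is not given in the sources used here.

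HSP70 proteins bind exposed hydrophobic stretches of unfolded proteins and release them in a cycle driven by ATP. J-domain proteins such as DNAJA1 deliver substrates and trigger ATP hydrolysis, HSP110 proteins act as nucleotide exchange factors that reopen HSP70, and HSP90 takes over partly folded clients such as kinases and receptors. In the testis, HSPA2 is the HSP70 made in large amounts by meiotic cells and required for male meiosis, HSPA4L is an HSP110 protein abundant in male germ cells, and HSP90AA1 is required for spermatogenesis, whereas HSPA8 and HSP90AB1 are the constitutive forms made in nearly every cell.

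Because related genes can share reads of footprint length, their coding sequences were compared first. The lines give the most alike 30-base windows of the main pairs, from RefSeq (GRCm38.p6), 5′ to 3′ on the coding strand, with bases that differ within a pair in capitals. The *Hspa2* window lies in its single coding exon at chr12:76405932-76405961 (plus strand) and the *Hspa8* window in coding exon 6 at chr9:40804231-40804260 (plus strand). The *Hspa4* window lies in coding exon 1 at chr11:53300078-53300107 (minus strand) and the *Hspa4l* window in coding exon 1 at chr3:40745737-40745766 (plus strand). The *Hsp90aa1* window in coding exon 1 at chr12:110695600-110695629 (minus strand) and the *Hsp90ab1* window in coding exon 1 at chr17:45571846-45571875 (minus strand) are the same sequence.
Hspa2: atcccCccagcaccccgtggggtcccCcag
Hspa8: atcccTccagcaccccgtggggtcccTcag
Hspa4: cggcggcatcgagacGatcgcTaacgagta
Hspa4l: cggcggcatcgagacCatcgcCaacgagta
Hsp90aa1 and Hsp90ab1: gagacctttgcctttcaggcagaaattgcc

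No 30-base window was identical between *Hspa2* and *Hspa8* or between *Hspa4* and *Hspa4l*, and 4 of the 2173 windows of *Hsp90aa1* were identical to a window of *Hsp90ab1*. Windows within 2 mismatches of the other gene made up 0.32% of those of *Hspa2*, 0.32% of those of *Hspa4* and 1.2% of those of *Hsp90aa1*. Copies elsewhere in the genome were far more common for some members. An exact copy on another locus existed for 95% of the 30-base coding windows of *Hspa8*, 95.1% of those of *Dnaja1* and 92.1% of those of *Hsp90aa1*, spread over 16, 6 and 9 other places. The share was 23.2% for *Hsp90ab1* and 0.16% for *Hspa2*, and it was 0% for *Hspa4*, *Hspa4l* and *Hsph1*. How reads that fit several places were counted is not given in the sources used here, so the levels of *Hspa8*, *Dnaja1* and *Hsp90aa1* are uncertain.

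Depth was uneven, with 2479504 and 1384282 counted reads for Control against 223906 and 407979 for *Eef1g*-cKO. A gene of median depth was covered by 60 and 34 reads in the former and by 5 and 8 in the latter. *Eef1g* itself was covered by 107 and 58 Control reads and by 0 and 4 *Eef1g*-cKO reads (log2 fold change -3.39, SE 0.91, limma adjusted p = 0.0731; edgeR adjusted p = 0.0078), with copies elsewhere for 95.3% of its coding windows. Its fold change was -4.82 without *Eef1g*-cKO library 2 (limma adjusted p = 1.04e-04), -1.96 without *Eef1g*-cKO library 1 (0.0108), and -3.37 and -3.41 without Control library 1 and 2 (0.418 and 0.461). All 8 markers of L/Z spermatocytes had a row, and their summed level was 1575 and 1215 FPKM in Control against 3716 and 3242 in *Eef1g*-cKO. Most of this sum was *Sycp3* (811 and 716 against 2217 and 1778). By adjusted p 4 of the 8 were higher and 0 lower, beside 2.87% and 4.97% of all genes tested, and *Spo11* overlapped between genotypes (log2 fold change 0.01). The 10 spermatogonial markers summed to 1489 and 1759 FPKM in Control against 249 and 228 in *Eef1g*-cKO. *Uchl1* made up most of that sum (1011 and 1138 against 140 and 120). Of the 10 markers, 6 were lower by adjusted p, beside 4.97% of all genes tested, and none was absent from both *Eef1g*-cKO libraries. Of 8 pachytene markers 5 had a row, with a median log2 fold change of 0.25. Their sum of 478 and 365 FPKM against 1563 and 1438 was mostly *Hist1h1t* (388 and 301 against 1458 and 1354), and *Piwil1* was lower by unadjusted p (log2 fold change -1.46). Of 8 Sertoli cell markers 6 had a row, summing to 520 and 115 FPKM against 109 and 72.1. This was mostly *Clu* (458 and 96.3 against 91.4 and 65.1), and Control library 2 was close to *Eef1g*-cKO library 1. *Gata4* had 27 and 6 reads in Control and 0 in both *Eef1g*-cKO libraries, whose depth was far lower. The sums of the L/Z and of the spermatogonial markers moved with genotype, as do the differences given here, and their part in them was not tested. Fewer cells of a type and less RNA per cell cannot be told apart.

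*Hsp90ab1* and *Hspa4l* moved in opposite directions in *Eef1g*-cKO spermatocytes, and both passed the adjusted test. RPFs on *Hsp90ab1*, the constitutive HSP90 and by far the most abundant member, fell, with a Control mean 2.48 times that of *Eef1g*-cKO. RPFs on *Hspa4l*, the germ cell HSP110, rose, with an *Eef1g*-cKO mean 2.31 times that of Control. *Hspa4*, *Hsp90aa1* and *Hsph1* had fold changes close to 0, and *Hspa2* and *Hspa8* differed in opposite directions without passing the adjusted test. The call required a limma adjusted p under 0.05 over all 10475 genes and an absolute log2 fold change above 1. Both calls were lost with a pseudocount of 0.1, with an untrended prior variance and after thinning to equal depth (adjusted p from 0.054 to 0.108), and both held in edgeR and DESeq2.

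**Figure D1:**
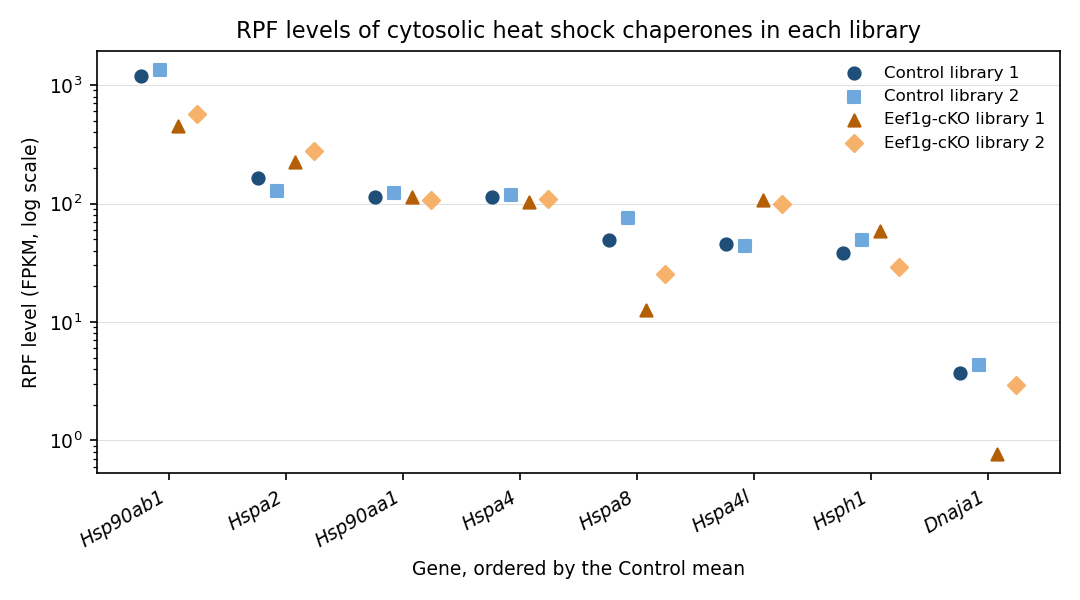
RPF level (FPKM, log axis) of the 8 chaperone genes in each of the 4 libraries, with genes ordered by their Control mean. *Hsp90ab1*, *Hspa8* and *Dnaja1* lie lower and *Hspa2* and *Hspa4l* higher in both *Eef1g*-cKO libraries, whereas the points of *Hsph1* overlap.

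By adjusted p, 1 of the 8 genes was higher and 1 lower, against 2.87% and 4.97% of all genes tested. By unadjusted p under 0.05 with the same fold threshold, 1 was higher and 2 were lower (*Hsp90ab1* and *Hspa8*), against 7.32% and 16.3% of all genes. For *Hspa2* and *Hspa4l*, 2 genes, the *Eef1g*-cKO libraries both exceeded the Control libraries, and for 5 genes both were below, against 24.6% and 37.7% of all genes. After random thinning of all libraries to the depth of the shallowest, the number of the 8 genes whose groups did not overlap was 4 in place of 7. The share over all genes after thinning was not computed, so this count has no background to be read against. The median log2 fold change of the 8 genes was -0.11, beside -0.23 over all genes tested. Centring each library on its median shifted all fold changes by 0.21, so changes smaller than this have no settled sign.

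**Figure D2:**
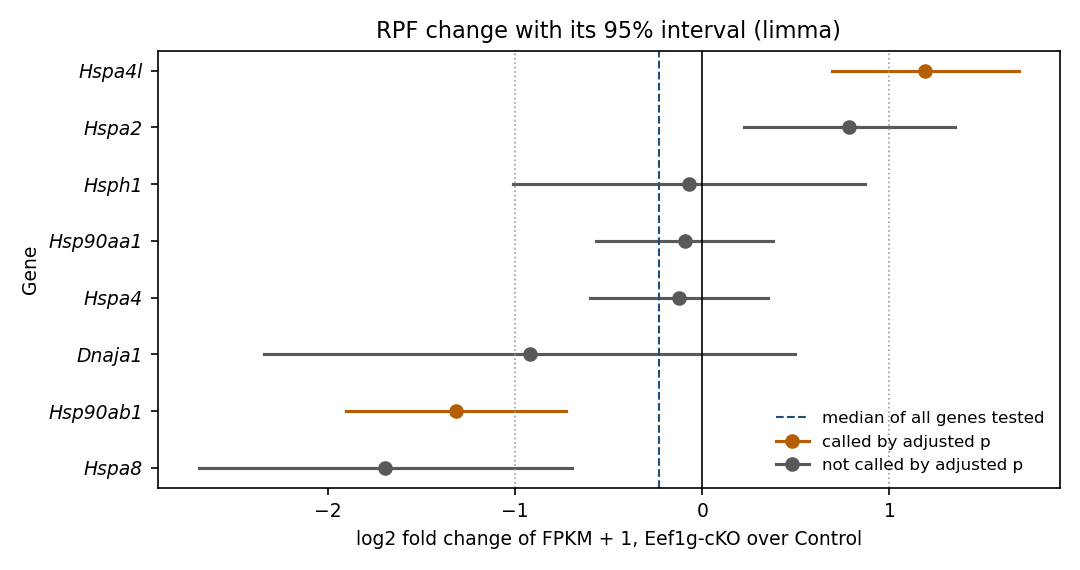
log2 fold change of FPKM + 1 in *Eef1g*-cKO over Control for each gene, with its 95% interval from limma (2 libraries per genotype). Dotted lines mark the fold threshold of 1 in either direction and the dashed line the median of all genes tested (-0.23); the intervals of *Hspa4l* and *Hsp90ab1*, both called by adjusted p, lie on opposite sides of 0.

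Positions of whole genes are those of RefSeq on GRCm38.p6. Among the HSP70 genes, *Hspa2* (chr12:76403812-76406938, plus strand) had 163 and 128 FPKM in Control and 225 and 277 in *Eef1g*-cKO, from 1082, 475, 135 and 303 reads. Both *Eef1g*-cKO libraries were above both Control libraries, and the ratio of means was 1.73. The log2 fold change was 0.79 (SE 0.23, 95% interval 0.22 to 1.35, limma adjusted p = 0.0854), below the fold threshold and short of the adjusted one. edgeR's quasi-likelihood test on the recovered reads gave an adjusted p of 0.00877 with a log2 fold change of 0.86, again below the fold threshold.

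*Hspa8* (chr9:40801276-40805202, plus strand), the constitutive HSP70, had 48.9 and 75.9 FPKM in Control and 12.7 and 25.6 in *Eef1g*-cKO. Its groups did not overlap, the ratio of means was 3.25 in favour of Control, and the *Eef1g*-cKO values rested on 6 and 22 reads. The log2 fold change of -1.70 (SE 0.40, 95% interval -2.69 to -0.70) did not pass the limma adjustment (adjusted p = 0.0586, unadjusted p = 0.00612). It passed in edgeR (adjusted p = 0.00498) and in DESeq2 (adjusted p = 0.0188), and in limma without *Eef1g*-cKO library 2 (adjusted p = 0.00427). It did not pass in limma without Control library 1, Control library 2 or *Eef1g*-cKO library 1 (adjusted p = 0.293, 0.415 and 0.0619). Summed over both libraries and scaled by depth, Control had 2.78 times the reads of *Eef1g*-cKO, with a 95% interval for counting error of 1.90 to 4.23.

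Among the HSP110 genes, *Hspa4l* (chr3:40744500-40796103, plus strand) had 45.6 and 43.4 FPKM in Control and 107 and 99.2 in *Eef1g*-cKO, from 402, 214, 85 and 144 reads. Replicates lay close together within each genotype, and both *Eef1g*-cKO libraries were far above both Control libraries. The log2 fold change was 1.19 (SE 0.20, 95% interval 0.69 to 1.69, limma adjusted p = 0.0354; edgeR adjusted p = 4.11e-04). Leaving out Control library 1, Control library 2 or *Eef1g*-cKO library 1 ended the call (limma adjusted p = 0.144, 0.164 and 0.0542), with the fold change between 1.14 and 1.24 whichever library was left out.

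*Hspa4* (chr11:53259814-53300479, minus strand), the ubiquitous relative of *Hspa4l*, had 113 and 118 FPKM in Control and 103 and 109 in *Eef1g*-cKO. Its group means were 116 ± 4.12 and 106 ± 4.12 FPKM (SD, n = 2 each), and the log2 fold change was -0.12 (SE 0.19, limma adjusted p = 0.686). The 95% interval of -0.60 to 0.35 excluded a change of 1 in either direction. *Hsph1* (chr5:149616843-149636498, minus strand), the stress-inducible HSP110, had 38.2 and 49.6 FPKM in Control and 59.1 and 28.9 in *Eef1g*-cKO, so that the *Eef1g*-cKO libraries lay on either side of Control. Its log2 fold change was -0.07 with an interval of -1.01 to 0.87 (limma adjusted p = 0.914), which spans nearly the whole range between the fold thresholds.

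Among the HSP90 genes, *Hsp90ab1* (chr17:45567778-45573261, minus strand) had 1195 and 1342 FPKM in Control and 454 and 569 in *Eef1g*-cKO, from 7428, 4657, 255 and 582 reads. It ranked 70th of all genes tested by mean level, and its groups were well separated. The log2 fold change was -1.31 (SE 0.24, 95% interval -1.90 to -0.73, limma adjusted p = 0.0379; edgeR adjusted p = 5.23e-04). Leaving out any one library ended the call in limma (adjusted p = 0.21 and 0.267 without Control library 1 and 2, 0.148 and 0.0559 without *Eef1g*-cKO library 1 and 2), with fold changes from -1.48 to -1.15.

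*Hsp90aa1* (chr12:110691036-110696395, minus strand), the stress-inducible HSP90, had 114 and 122 FPKM in Control and 113 and 108 in *Eef1g*-cKO. Both Control libraries were above the *Eef1g*-cKO libraries by a margin no larger than the gap between replicates, and the log2 fold change was -0.10 (SE 0.19, 95% interval -0.57 to 0.38, limma adjusted p = 0.765). A change of 1 in either direction lay outside this interval. *Dnaja1* (chr4:40722468-40734965, plus strand), the J-domain member, had 3.69 and 4.37 FPKM in Control and 0.771 and 2.96 in *Eef1g*-cKO, where they came from 1 and 7 reads. Both *Eef1g*-cKO libraries were lower, but the log2 fold change of -0.92 (SE 0.58, 95% interval -2.34 to 0.50, limma adjusted p = 0.322) was within the error. By counting error alone the ratio of *Eef1g*-cKO to Control was 0.556 with an interval of 0.233 to 1.14, so that a difference was not detectable at this depth.

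FPKM being per kilobase, levels could be ordered across genes. The places of *Hspa8*, *Dnaja1* and *Hsp90aa1* in any such order are uncertain, because most of their coding windows have copies elsewhere. In Control, *Hsp90ab1* led, followed by *Hspa2*, *Hsp90aa1*, *Hspa4*, *Hspa8*, *Hspa4l*, *Hsph1* and *Dnaja1*, with overlapping ranges between the neighbours *Hsp90aa1* and *Hspa4* and between *Hspa4l* and *Hsph1*. In *Eef1g*-cKO the same 4 genes led per kilobase of gene length, again with overlapping ranges of *Hsp90aa1* and *Hspa4*, and *Hspa4l* came next, overlapping *Hspa4*. *Hsph1* followed, then *Hspa8*, which in Control had stood before *Hspa4l* and *Hsph1*, and *Dnaja1* was again the lowest. The table's gene length includes untranslated sequence, where few RPFs are found, and the coding part of this length was 20.6% for *Dnaja1*, 54.5% for *Hspa4* and 70.7% to 92.3% for the others. Per kilobase of coding sequence, an order chosen after the data were seen, *Hspa4* at 212 ± 7.57 and *Hspa2* at 205 ± 34.7 (mean ± SD, n = 2) overlapped in Control, ahead of *Hsp90aa1*. In *Eef1g*-cKO the coding order was *Hsp90ab1*, *Hspa2*, *Hspa4*, *Hspa4l* and *Hsp90aa1*, in which *Hspa4l* overlapped *Hsp90aa1* but not *Hspa4*. *Dnaja1* had the lowest mean in both genotypes on either scale.

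Together the 8 genes took 4698 and 5117 of every 1000000 counted reads in the Control libraries, against 3158 and 3505 in those of *Eef1g*-cKO. Both *Eef1g*-cKO libraries were lower, with a ratio of means of 0.679, and the exact two-sided permutation test gave p = 0.33, the smallest that 2 libraries against 2 allow. The lower sum rested on *Hsp90ab1* alone, at 3128 of every 1000000 reads over both Control libraries and 1325 over both *Eef1g*-cKO libraries. Without *Hsp90ab1*, the remaining genes together were higher in both *Eef1g*-cKO libraries than in both Control libraries. The reads divided differently among the genes. *Hsp90ab1* held 63.8% and 65.7% of them in Control, against 36.1% and 40.7% in *Eef1g*-cKO. *Hspa2* held 9.29% and 6.71% against 19.1% and 21.2%, and *Hspa4l* 3.45% and 3.02% against 12.0% and 10.1%. These shares sum to the whole in each library, so a lower share of one gene raises the others.

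**Figure D3:**
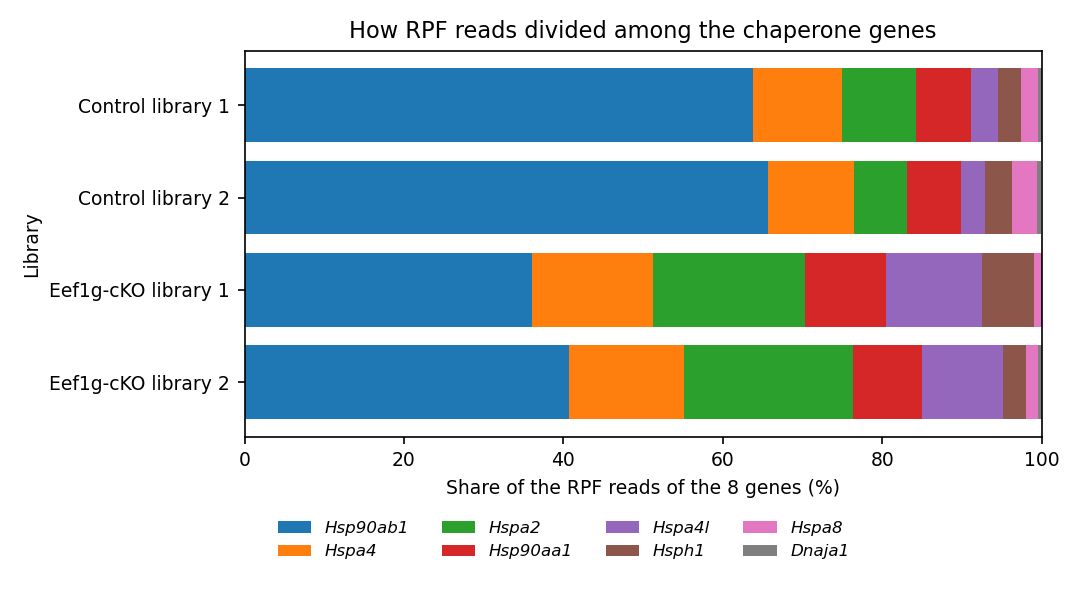
Share (%) of the RPF reads of the 8 genes that each gene held, with 1 bar per library. The *Hsp90ab1* segment shrinks from 63.8% and 65.7% in the Control libraries to 36.1% and 40.7% in the *Eef1g*-cKO libraries, and the segments of *Hspa2* and *Hspa4l* widen.

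Ratios between related genes within a library do not depend on scaling between libraries. The level of *Hspa2* was 3.33 and 1.69 times that of *Hspa8* in Control, against 17.7 and 10.8 times in *Eef1g*-cKO, a 5.83-fold difference between genotypes that rests on the few *Hspa8* reads. *Hspa4l* stood at 0.405 and 0.367 of the *Hspa4* level in Control, against 1.04 and 0.912 in *Eef1g*-cKO, a 2.52-fold difference between genotypes. The fold does not depend on gene length but the ratio itself does: per kilobase of coding sequence *Hspa4l*, at 151 and 140, was still below *Hspa4*, at 189 and 199.7, in *Eef1g*-cKO. *Hsp90aa1* stood at 0.0951 and 0.0909 of the *Hsp90ab1* level in Control, against 0.248 and 0.189 in *Eef1g*-cKO (2.33-fold). For these 3 pairs both *Eef1g*-cKO libraries were above both Control libraries. The ratios *Hsph1*/*Hspa4* and *Dnaja1*/*Hspa8* overlapped between genotypes. With 1 read added to each gene, *Dnaja1*/*Hspa8* did not overlap, at 0.0767 and 0.0589 in Control against 0.104 and 0.126 in *Eef1g*-cKO. That separation rests on the added read, because *Dnaja1* had 1 read in *Eef1g*-cKO library 1, where the ratio was 0.0606 without it. Over the 5 pairs the exact permutation test gave no p below 0.33 (0.555 after Benjamini-Hochberg adjustment), the limit of 2 libraries against 2.

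**Figure D4:**
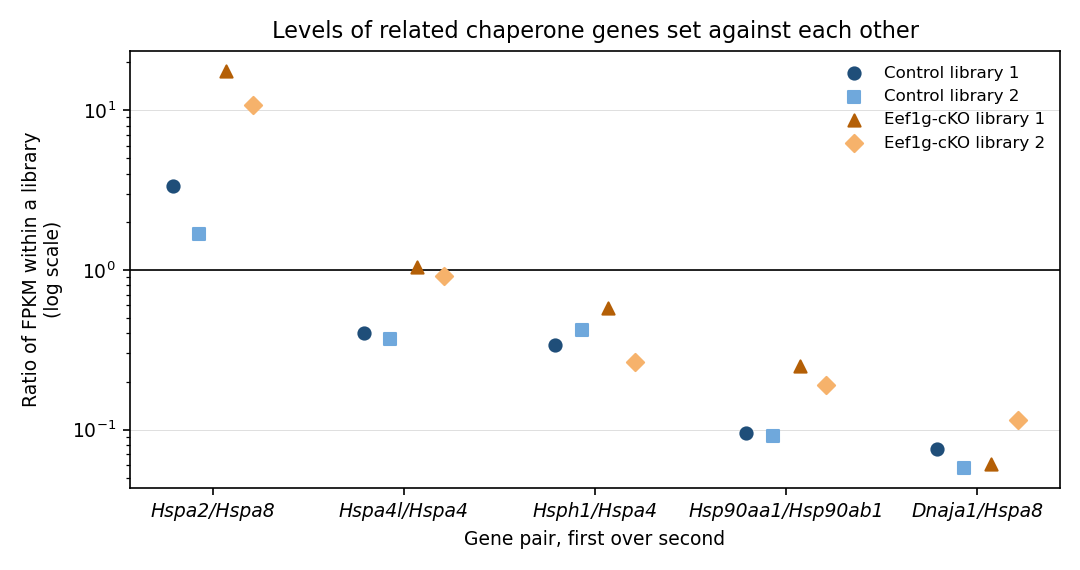
Ratio of FPKM between 2 related chaperone genes within each library (log axis; the line marks equal levels). The ratio *Hspa4l*/*Hspa4* is 0.405 and 0.367 in Control, against 1.04 and 0.912 in *Eef1g*-cKO; *Hspa2*/*Hspa8* and *Hsp90aa1*/*Hsp90ab1* are also higher in both *Eef1g*-cKO libraries, and the other pairs overlap.

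The members that moved were set beside the rest of the chaperone system, in lists of general knowledge that hold no member. The cytosolic lists held 64 genes, with co-chaperones and heat shock factors among them. Of these, 52 were tested, and 0 were higher and 1 lower by limma adjusted p (2 and 5 in edgeR, 2 and 4 in DESeq2). By unadjusted p 3 were higher and 11 lower, beside 7.32% and 16.3% of all genes tested (2.87% and 4.97% by adjusted p), and the median log2 fold change was 0.05, or 0.08 with the 2 genes at 0 reads in both *Eef1g*-cKO libraries set to the floor of 3 reads. The called gene was *Stub1*, which encodes CHIP, a ubiquitin ligase that binds HSP70 and HSP90, with 19.1 and 19.4 FPKM in Control and 2.67 and 1.47 in *Eef1g*-cKO (log2 fold change -2.75, SE 0.41, limma adjusted p = 0.0307). Its *Eef1g*-cKO values came from 1 read in each library, and the Control to *Eef1g*-cKO ratio of reads was 10.1 with a counting interval of 2.75 to 84.7.

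By list, none of the 17 J-domain co-chaperones tested passed the limma adjusted p (1 higher and 1 lower in edgeR and in DESeq2), and 2 were higher and 2 lower by unadjusted p, with a median of 0.38. The largest change there among genes of at least 5 FPKM was that of *Dnajc21*, a ribosome biogenesis factor, from 30.6 and 19.7 FPKM to 69.6 and 58.5 (log2 fold change 1.34, limma adjusted p = 0.0501; edgeR adjusted p = 0.0037). Of 10 HSP70 exchange factors and adaptors, 1 was higher and 3 lower by unadjusted p, beside the same 7.32% and 16.3% of all genes, with a median of -0.09. Of 4 other cytosolic HSP70 genes, 1 was lower by unadjusted p, *Hspa14*, which acts with a J-domain protein at the ribosome and went from 15.7 and 17.3 FPKM to 5.38 and 2.95 (limma adjusted p = 0.0539; edgeR adjusted p = 0.00165; DESeq2 adjusted p = 0.00789).

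None of the 16 HSP90 co-chaperones passed the limma adjusted p, whereas edgeR and DESeq2 each called 2, both lower. By unadjusted p 0 were higher and 4 of 16 lower, beside 7.32% and 16.3% of all genes, with a median of -0.11, and *Unc45a*, a myosin chaperone that works with HSP90, had 17.4 and 39.9 FPKM in Control and 8.21 and 8.27 in *Eef1g*-cKO (log2 fold change -1.57, limma adjusted p = 0.0796). Of the 4 heat shock factors tested none was called by either limma p, by edgeR or by DESeq2, and their median was 0.10. *Hsf1*, the main activator of heat shock genes, had 13.6 and 11.1 FPKM in Control and 8.85 and 2.43 in *Eef1g*-cKO (log2 fold change -1.19, limma adjusted p = 0.223). Of the small heat shock proteins only *Hspb1* had a row, with 23 and 3 reads in Control and 0 in both *Eef1g*-cKO libraries. Against a floor of 3 reads over the group it was 1.42-fold lower, a value that leaves out the counting error of Control. With a floor of 3 reads in each *Eef1g*-cKO library, as for the list medians, its log2 fold change was 0.96, so no least decrease was established. Copies elsewhere existed for 90.0% of its coding windows.

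The chaperones of organelles, listed for comparison, had a median of 0.39 over 8 genes. By limma adjusted p 1 was higher and 1 lower, beside 2.87% and 4.97% of all genes tested (3 and 1 in edgeR, 2 and 1 in DESeq2). *Hspa5*, not called in limma, had 2824 and 2149 FPKM in Control and 6438 and 6586 in *Eef1g*-cKO (log2 fold change 1.40, limma adjusted p = 0.0607, edgeR adjusted p = 2.53e-04). *Hsp90b1*, the HSP90 of the endoplasmic reticulum, rose from 911 and 718 FPKM to 1789 and 1838 (log2 fold change 1.16, SE 0.25, limma adjusted p = 0.0497; edgeR adjusted p = 6.14e-04), opposite to its cytosolic relative *Hsp90ab1*. *Hspe1*, the HSP10 partner of mitochondrial HSP60, fell from 211 and 230.5 FPKM to 52.3 and 31.9 (log2 fold change -2.40, SE 0.28, limma adjusted p = 0.0249), with copies elsewhere for 85.0% of its coding windows.

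**Figure D5:**
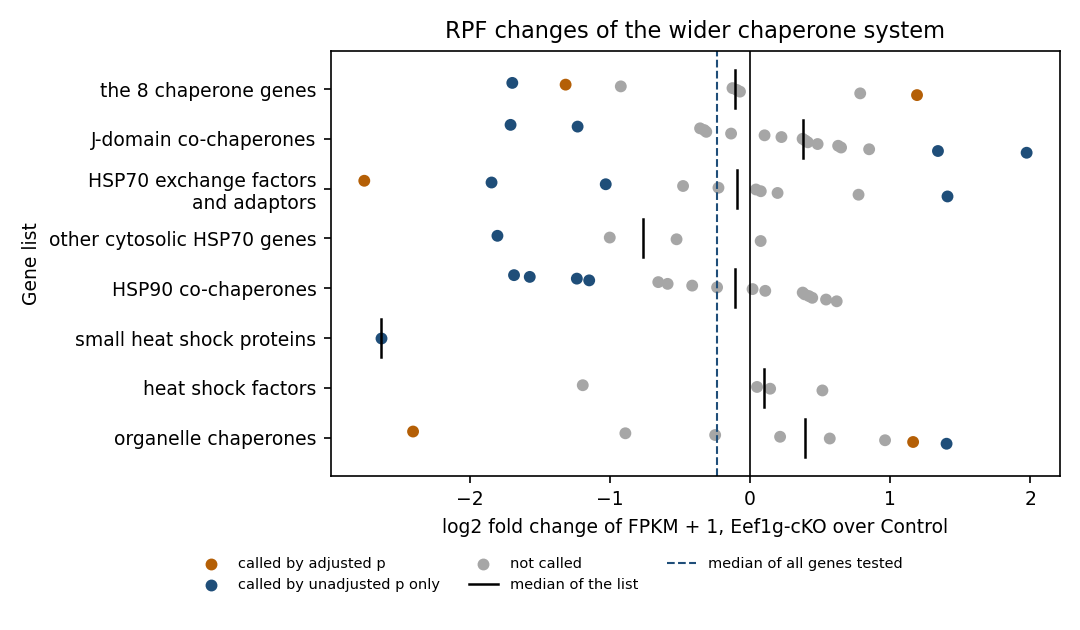
log2 fold change of FPKM + 1 in *Eef1g*-cKO over Control for each gene tested in the chaperone lists, coloured by call, with the median of each list as a black bar and the median of all genes tested (-0.23) dashed. The genes called by adjusted p are *Hspa4l* and *Hsp90b1* on the higher side and *Hsp90ab1*, *Stub1* and *Hspe1* on the lower side; the fitted value of *Hspb1*, at 0 reads in *Eef1g*-cKO, is no bound.

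Heat shock factors bind inverted GAA units, and the promoters of the members were searched for GAANNTTC and TTCNNGAA, each of which reads the same on both strands. RefSeq (GRCm38.p6) windows from 250 bases before to 50 after a start were at hand for 6 members, *Hspa2*, *Hspa4*, *Hspa4l*, *Hspa1l*, *Hsph1* and *Dnaja1*. A match was found in 2 of the 6, *Dnaja1* and *Hsph1*, beside 17.0% of 27025 genes and 15.1% of 32851 windows. *Hsph1* also held the element of 3 alternating units (GAANNTTCNNGAA or TTCNNGAANNTTC), which was found in 0.662% of genes. This element began 36 or 15 bases after 2 annotated starts, where 2 shorter matches overlap. It is separate from the *Hsph1* match before the start that is shown here. The stretches with the match nearest before the start are shown with the match in capitals, at chr4:40722333-40722362 (plus strand) for *Dnaja1*, 124 bases before the start, and at chr5:149636351-149636380 (minus strand) for *Hsph1*, 33 or 54 bases before 2 annotated starts.
Dnaja1: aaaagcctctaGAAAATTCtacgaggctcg
Hsph1: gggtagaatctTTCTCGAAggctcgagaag

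The 2 members with a match had log2 fold changes of RPFs of -0.92 and -0.07, neither past the test. *Hspa4l*, which rose, *Hspa2* and *Hspa4* (log2 fold change -0.12) had no match in their windows, and *Hsp90ab1*, *Hspa8* and *Hsp90aa1* had no window. Whether these matches bear on RPF levels was not tested.

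The median profile of the 8 genes over the 4 libraries, on the centred log2(FPKM + 1) scale, was nearly flat, at 0.0118 and 0.16 for the Control libraries and -0.0574 and -0.0526 for those of *Eef1g*-cKO. Among 7073 other genes of at least 5 FPKM, the nearest profiles by root mean square distance were those of *Hmgxb3* (0.02), *Piwil2* (0.022) and *Fnbp1l* (0.023). *Piwil2*, which encodes a PIWI protein of the piRNA pathway, had 123 and 135 FPKM in Control and 119 and 116 in *Eef1g*-cKO. This profile averages members that moved apart and describes none of *Hsp90ab1*, *Hspa8*, *Hspa2* or *Hspa4l*.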

How the data were processed

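RPFs of 26 to 34 nt were prepared by the submitters from cells lysed with cycloheximide and digested with RNase I. The submitters' processing notes name cutadapt, Bowtie and STAR and the builds mm10 and hg38, with no versions or roles; the counting of reads that fit several places is not given in the sources used here. The authors deposited 1 table for the series. It holds FPKM, for which the authors scaled reads by gene length and to 1000000 reads on genes. It also holds counts that the authors normalized by size factors, a signal whose values were 100% whole multiples of the step of 1 read in every library (within rounding), so the reads could be recovered. The authors' own fold changes, errors, test statistics, p-values and adjusted p-values for the genotypes were not used.

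Genotypes were compared with limma 3.58.1 in R 4.3.3, using log2(FPKM + 1) and letting the prior variance follow abundance, over the 10475 genes averaging 1 FPKM or more, two-sided, with Benjamini-Hochberg adjustment over all of them. Fold changes on this scale understate those of low genes. Calls needed p under 0.05 together with a log2 fold change beyond 1 in either direction. As alternatives, edgeR 4.0.16 (TMM, quasi-likelihood) and DESeq2 1.42.0 were run on the recovered reads, with pseudocounts of 0.1 and 5, other filters, median centring, an untrended prior, thinning, the replicate block and each library left out. Each model was tested on simulated data. Single values were compared by exact permutation in Python 3.11.15 (scipy 1.17.1).

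As a check for repeated deposits of one library, replicates were compared and differed by more than sampling noise (chi-square per degree of freedom 13.2 in Control and 1.96 in *Eef1g*-cKO). Counting intervals (95%, exact conditional on the summed reads of each group) and the floor of 3 reads cover counting error only. Exact copies of coding windows were counted on the chromosomes of GRCm38.p6, leaving out the gene's own locus.

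The members and lists were chosen with earlier results of these data known. The genes named are the members, *Eef1g*, of each list those called by adjusted p and the gene of at least 5 FPKM with the largest absolute log2 fold change, and the 3 genes nearest to the members' median profile. *Hspb1*, *Hspa5*, the cell type markers named and the bounds of genes at 0 were added after their values were seen, as were the copy counts and the levels per kilobase of coding sequence. The ratio of *Hspa1l* to *Hspa8* and comparisons of proteins, planned at first, were not made here.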

Additional observations from a re-analysis of the deposited data

How the results depend on the processing

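Of 229 alternative values, 159 were kept, meaning the same direction and side of the threshold for a tested change, a count within 1.5 times the reported one, or another value within 1 SD between replicates. Within that range, members called by adjusted p numbered 3 with a pseudocount of 5, a minimum of 5 FPKM, edgeR, DESeq2 and the replicate block, and members whose groups did not overlap numbered 5 in DESeq2. Shares over all genes were not computed under the alternatives, so counts given for them have no background beside them. The changes of *Hspa4l* and *Hsp90ab1* kept their direction under all alternatives. Their calls by adjusted p were lost with a pseudocount of 0.1 (1.21, adjusted p = 0.054, and -1.32, adjusted p = 0.0572), with an untrended prior variance (1.19, adjusted p = 0.0931, and -1.31, adjusted p = 0.0897) and after thinning to equal depth (1.03, adjusted p = 0.108, and -1.35, adjusted p = 0.102), each of which left 0 of 2 members and 0 genes of the cytosolic lists called. *Hspa8* became called with a pseudocount of 5 (-1.50, adjusted p = 0.0428), a minimum of 5 FPKM (-1.70, adjusted p = 0.0435), edgeR (-1.51, adjusted p = 0.00498) and DESeq2 (-1.56, adjusted p = 0.0188). Whether the replicate numbers pair the samples is not given in the sample labels. The correlation of replicate deviations was -0.008 over 10475 genes, which cannot decide it because counting noise is large at the *Eef1g*-cKO depth. With the replicate block *Hspa8* was called (-1.70, adjusted p = 0.015) and 8 genes of the cytosolic lists were called by adjusted p in place of 1. Those list calls numbered 5 with a pseudocount of 5 and with a minimum of 5 FPKM, 3 with median centring, 7 in edgeR and 6 in DESeq2. The 14 calls by unadjusted p became 8, 9, 8 and 9 with the pseudocount of 5, the minimum of 5 FPKM, DESeq2 and thinning.

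Median centring turned *Hspa4* to 0.089, *Hsp90aa1* to 0.12 and *Hsph1* to 0.14, the median of the members to 0.10 and that of the cytosolic lists to 0.26. *Hsph1* was at 0.020 in edgeR and 0.018 in DESeq2, and *Hsp90aa1* at 0.020 after thinning. The median of the members was -0.034 in edgeR, and that of the cytosolic lists was 0.15 in edgeR, 0.12 in DESeq2 and -0.13 after thinning. Members whose groups did not overlap numbered 4 after thinning.

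With each library left out in turn, members called by adjusted p ranged from 0 to 2, and list genes called from 0 to 9 by adjusted p (9 without *Eef1g*-cKO library 2 and 7 without library 1) and from 3 to 13 by unadjusted p. The fold changes ranged from 1.14 to 1.24 for *Hspa4l*, -1.48 to -1.15 for *Hsp90ab1*, -2.17 to -1.22 for *Hspa8* and -0.57 to 0.43 for *Hsph1*, the median of the members from -0.23 to -0.067 and that of the lists from -0.080 to 0.043. The cause of these changes was not tested. The *Eef1g*-cKO depth limits what can be seen for *Dnaja1*, *Hspa8*, *Stub1* and *Hspb1*, which had at most 28 reads over both libraries; *Dnaja1* was not tested at the minimum of 5 FPKM, and its DESeq2 adjusted p was not available.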
